A study of Mus musculus with 4 samples.

Results

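Cyclic AMP signalling genes were followed on 4 arrays of testis RNA from hypogonadal (hpg) mice. The members were all probe sets with a single gene symbol in the platform annotation that begins with Prkac, Prkar, Adcy, Pde and a digit, Akap or Creb, or that is Crem. Akap3 and Akap4, anchoring proteins of the sperm flagellum, were left out. This gave 54 probe sets of 39 genes, out of 12422 probe sets without controls. The pattern goes by names, so it also takes in genes outside the core of the pathway, among them the peptide PACAP (Adcyap1) and its receptor (Adcyap1r1), the PDE6 subunits, the cyclic GMP enzyme Pde9a, the scaffold Pde4dip, and Crebrf and Creb3l1.

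Cyclic AMP is a second messenger made from ATP by adenylyl cyclases when receptors coupled to a stimulatory G protein are occupied. It binds the regulatory subunits of protein kinase A (PKA) and frees the catalytic subunits, anchoring proteins (AKAPs) hold the kinase at chosen places in the cell, and phosphodiesterases (PDEs) end the signal. In the nucleus PKA acts on CREB and CREM, transcription factors that bind the cyclic AMP response element. In the testis, follicle-stimulating hormone acts on Sertoli cells and luteinising hormone on Leydig cells through this pathway, and CREM drives genes of haploid spermatids.

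The hpg mouse lacks gonadotropin-releasing hormone, and with it most of the drive for both gonadotropins and for testosterone. By the titles, 3 arrays belong to the group T+T and 1 to the group T+O. The label of T+T replicate 1 gives a first course of testosterone propionate, an injectable testosterone ester, then its withdrawal, then the same ester again for 4 hours. The labels of T+T replicates 2 and 3 give 2 weeks of the first course and the withdrawal and stop there, so only their titles place them with T+T. The T+O array is labelled with 2 weeks of the first course followed by withdrawal. Every array thus comes from an androgen-treated hpg testis, and no untreated or wild-type testis was measured here. Age and strain are not given in the labels, and neither is whether an array holds 1 animal or a pool, so the p-values cover the spread among these arrays and no more. The comparison implied by the titles is renewed testosterone against withdrawal. It has 1 array on the T+O side, which is assumed in the test to vary like the T+T arrays.

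Signals are in arbitrary units, after each array was scaled to a common trimmed mean, and T+T values are given in the order of replicates 1, 2 and 3. Signals of different probe sets also carry the affinity of their probes, so no probe set's level is set against another's. Of the 54 probe sets, 36 (28 genes) had a mean over the 4 arrays above 22.7, the 40th percentile of all probe sets, and were tested. The other 18 lay below it, and 11 genes had no probe set above it. The least bright of the tested probe sets were one of Crem, at a mean of 22.7, and one of Creb1, at 24.2. The brightest below were one of Pde6b, at 21.1, and one of Creb1, at 17.6. No detection calls were used, so a signal this low was not shown to lie above background.

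The 4 arrays correlated at 0.943 to 0.968 over the 7453 tested probe sets. Of the markers fixed for the testis, 13 of 13 spermatid genes on the array, 10 of 11 for Sertoli cells and 7 of 9 for Leydig cells were above the filter. Among those below it were the Sertoli hormone Amh and the Leydig enzyme Hsd3b6. The filter by design keeps 7453 of all 12422 probe sets. Red cell (4 of 4), adipose (3 of 5) and neuronal genes (3 of 7) were above it too, so these counts do not show which cell types were present. Summed signals were 32985 to 42810.4 in T+T and 33417 in T+O for the spermatid markers. For Sertoli markers they were 2454 to 2879 in T+T and 2512 in T+O, and for Leydig markers 1102 to 1283 in T+T and 1217 in T+O. T+O also lay inside the T+T range for spermatocyte, adipose and neuronal markers. It lay below all 3 T+T arrays for endothelial markers (298 to 402 in T+T and 276 in T+O), macrophage markers (535 to 640.3 in T+T and 504.3 in T+O), red cell markers (627 to 685 in T+T and 608 in T+O) and markers of peritubular myoid and smooth muscle cells (1491 to 1823 in T+T and 1441 in T+O). It lay above them for spermatogonial markers (816 to 1182 in T+T and 1233 in T+O). Each sum is led by its brightest genes, and single genes differed. Of 6 spermatogonial genes above the filter, all T+T signals lay below T+O for 3 and above it for 2. Of 7 myoid and smooth muscle genes they lay above it for 4 and below it for 0. For Actg2, the brightest of these 7, T+O lay inside the T+T range. The spermatocyte gene Sycp1, of the synaptonemal complex, stood apart with 13.5, 38.5 and 36.2 in T+T, against 389.9 in T+O (limma, adjusted p = 0.11). The ratio of 3′ to 5′ signal of the control gene Gapdh, a sign of RNA integrity, was 0.89, 0.84 and 0.81 in T+T, against 1.20 in T+O. The part of these marker levels and of this ratio in the values below was not tested.

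No cyclic AMP signalling probe set passed the test between T+T and T+O. With limma, a linear model that borrows the spread from all probe sets, 0 of 36 passed an adjusted p of 0.05. The same test passed 0.0268% of all 7453 probe sets (2 probe sets), a count that depended on single arrays. With replicate 1 of T+T left out it came to 63, with replicate 2 left out to 12 and with replicate 3 left out to 1, and no member was among them. At an unadjusted p under 0.05 there were 0 of 36 members, where 7.8% of all probe sets lay. Without replicate 3 there were 5, of Akap8l, Adcy6, Pde4dip, Akap1 and Crebrf, where 14.4% of all lay, and without replicate 1 or 2 there were 0. With no filter there were 3 of 54, where 7.26% of all lay. With replicates 2 and 3 read as withdrawn there were 2 of 36, where 5.1% of all lay. None of the 36 was at least 1.5-fold to one side of T+O on all 3 T+T arrays, a description with no test that 4.07% of all probe sets met (1.84% above T+O and 2.23% below). The lowest adjusted p among the members was 0.72, for Adcy6. In whole testis RNA, fewer cells of a type and less RNA per cell cannot be told apart.

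Smaller separations were common on these arrays. All 3 T+T signals lay above the T+O signal for 14 of the 36 (38.9%, against 29.5% of all probe sets) and below it for 10 (27.8%, against 23.7% of all). T+O therefore lay outside the T+T range for 24 of 36 members, where 53.3% of all probe sets did. These counts moved with the scaling. After median scaling they were 10 above and 10 below of 35 (28.6% each, against 24.8% and 26.6% of all). After quantile scaling they were 15 and 8 of 35 (42.9% and 22.9%, against 29.9% and 24.6% of all). With no scaling, relative to the median of all probe sets, they were 5 and 1 of 36 (13.9% and 2.78%, against 14.8% and 10.7% of all). T+O then lay outside the T+T range for 6 of 36 members with no scaling (16.7%, against 25.4% of all probe sets). The median log2 difference of the 36 was 0.08, beside 0.03 over all probe sets, and 52.8% of the members and 53.7% of all had a positive difference. By array, the members' median difference from T+O was 0.12, -0.0042 and 0.01 on T+T replicates 1, 2 and 3, and that of all probe sets was 0.04, 0.02 and 0.04.

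**Figure D1:**
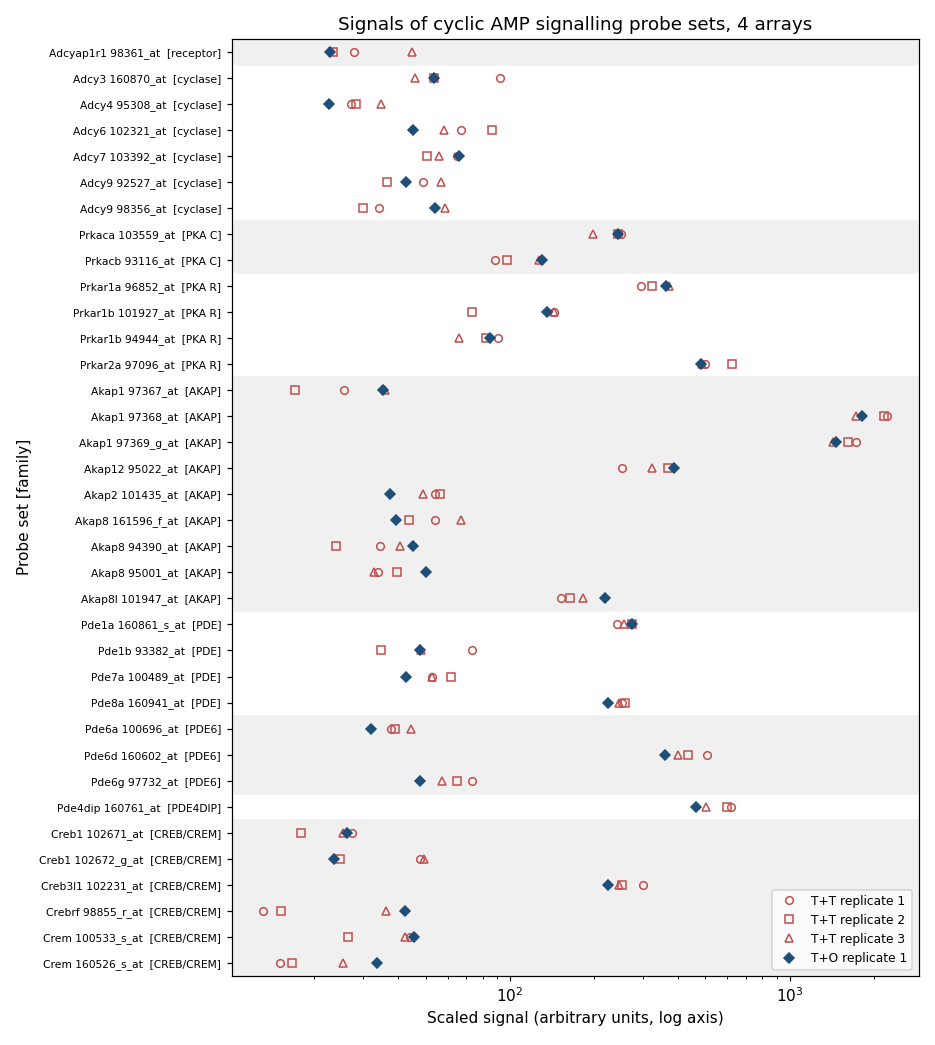
Scaled signals on a log axis of the 36 cyclic AMP signalling probe sets above the filter, in rows by family: open red symbols are T+T replicates 1, 2 and 3 and the filled blue diamond is the T+O array. The diamond lies among or close to the open symbols in most rows. It lies to the right of all 3 in both Crem rows and to the left of all 3 in the rows of Pde6a, Pde6d and Pde6g.

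The kinase itself was read, as mRNA only, by probe sets of its catalytic and regulatory subunits. Prkaca encodes the catalytic subunit found in most tissues, with a sperm-specific variant. It had 249, 243 and 198 in T+T, against 243 in T+O. The T+O signal fell inside the T+T range, which replicate 3 widened at the low end. The log2 difference was -0.08 (95% interval -0.57 to 0.40), so that this set of arrays leaves room for a fold between 0.68 and 1.32. Prkacb, the second catalytic isoform, had 88.7, 97.7 and 127 in T+T, against 131 in T+O. All 3 T+T signals were below T+O. Replicates 1 and 2 were low and replicate 3 lay next to T+O, at a log2 difference of -0.31 (95% interval -0.89 to 0.26).

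The regulatory subunits hold the catalytic ones inactive until cyclic AMP binds. Prkar1a, the widely expressed type I subunit, had 295, 322 and 370.3 in T+T, against 361 in T+O, with T+O inside the T+T range and a log2 difference of -0.13 (95% interval -0.59 to 0.32). Prkar2a, the type II subunit that most AKAPs bind, had 499, 623 and 485 in T+T, against 482 in T+O. T+O was the lowest of the 4 by a narrow margin to replicate 3, and the log2 difference was 0.14 (95% interval -0.33 to 0.61). Prkar1b, a type I subunit known chiefly from the nervous system, was read by a pair of probe sets. The first, 101927_at, had 144, 73.2 and 144 in T+T, against 136 in T+O. Replicate 2 stood apart below the other 3 arrays, which gave one of the wider intervals, -0.22 (95% interval -1.06 to 0.62). The second, 94944_at, had 90.4, 82.5 and 66.1 in T+T, against 85.2 in T+O and did not share the low value of replicate 2. All 6 PKA probe sets were above the filter, and the median log2 difference was -0.20 for the 2 catalytic and -0.12 for the 4 regulatory ones.

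Promoters of PKA subunits are shown as examples, because PKA acts on CREB and CREM, which bind the response element. Other members, among them Pde4b, Pde8a and Adcy9, hold half-sites too. Whether any of these genes responds through such an element was not tested. Sequences are RefSeq's for assembly GRCm38.p6, and 29 of the 39 member genes had an entry. The letters searched were the full palindromic element TGACGTCA and its half-site TGACG, which reads CGTCA on the other strand and which the full element contains. The window ran from 250 bases before each listed start to 50 after it. Each sequence below is the 250 bases before 1 start, 5′ to 3′, with matches in capitals. The start shown is the one with the most matches among those listed: 2 for Prkaca, 3 for Prkacb, 6 for Prkar1a and 5 for Prkar1b. It was picked for its matches and does not stand for the gene's other starts.
Prkaca: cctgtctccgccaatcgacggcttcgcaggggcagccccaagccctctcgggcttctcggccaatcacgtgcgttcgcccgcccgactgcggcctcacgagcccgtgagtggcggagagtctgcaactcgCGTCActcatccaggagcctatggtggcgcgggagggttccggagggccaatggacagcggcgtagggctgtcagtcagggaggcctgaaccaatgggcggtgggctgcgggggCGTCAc
Prkacb: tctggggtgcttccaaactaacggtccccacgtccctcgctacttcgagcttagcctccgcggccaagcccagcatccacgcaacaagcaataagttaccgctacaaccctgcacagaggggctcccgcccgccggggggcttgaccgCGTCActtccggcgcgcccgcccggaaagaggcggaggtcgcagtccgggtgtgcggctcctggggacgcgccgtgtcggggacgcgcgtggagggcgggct
Prkar1a: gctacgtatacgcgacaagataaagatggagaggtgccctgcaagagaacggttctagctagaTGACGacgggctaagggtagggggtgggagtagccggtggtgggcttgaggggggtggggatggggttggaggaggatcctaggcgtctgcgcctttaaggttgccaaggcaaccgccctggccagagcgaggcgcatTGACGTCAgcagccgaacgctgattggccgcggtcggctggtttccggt
Prkar1b: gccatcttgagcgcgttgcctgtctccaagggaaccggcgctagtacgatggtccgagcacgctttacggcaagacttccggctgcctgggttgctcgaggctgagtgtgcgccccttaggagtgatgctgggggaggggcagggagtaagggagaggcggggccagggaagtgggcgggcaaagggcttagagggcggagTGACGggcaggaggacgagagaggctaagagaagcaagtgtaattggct

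The Prkaca stretch is chr8:83972728-83972977 on the plus strand, that of Prkacb chr3:146812947-146813196 on the minus strand, that of Prkar1a chr11:109650699-109650948 on the plus strand and that of Prkar1b chr5:139150002-139150251 on the minus strand. Prkar1a was the only one of the 29 genes with the full element, which begins 49 bases before this start and is preceded by a separate half-site 187 bases before it. Of all 27025 genes in the promoter table, 2.03% hold the full element. Prkaca has half-sites beginning 120 and 6 bases before the start shown, Prkacb 1 at 102 bases and Prkar1b 1 at 49 bases. In Prkar2a a half-site begins 4 bases before the start and runs across it, so its stretch is not shown. A half-site occurred in 13 of the 29 member genes (44.8%) and in 23% of all genes, and genes differ in how many starts are listed, from 1 for Prkar2a to 6 for Prkar1a. Prkar1a, the holder of the full element, is the gene described above with a log2 difference of -0.13. A match in these letters is a description and not a bound site.

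Upstream of the kinase, PACAP is a peptide that raises cyclic AMP, and its transcripts are known in testicular germ cells. Its gene Adcyap1 lay under the filter, with 4.03, 12.9 and 4.52 in T+T, against 1.92 in T+O. Its receptor gene Adcyap1r1 had 27.7, 23.4 and 44.8 in T+T, against 22.7 in T+O on 98361_at, where replicate 3 was high and T+O the lowest, at a log2 difference of 0.33 (95% interval -0.60 to 1.25). The other probe set of the receptor, 98362_s_at, was under the filter and lay the other way, with 3.22, 3.32 and 5.77 in T+T, against 10.2 in T+O.

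Among the adenylyl cyclases, 6 probe sets of 5 genes were above the filter, with log2 differences from -0.38 to 0.54 and a median of 0.14. Adcy6, a cyclase inhibited by calcium, had 67.1, 86.4 and 58.1 in T+T, against 44.9 in T+O. All 3 T+T signals were above T+O, and the log2 difference was 0.54 (95% interval -0.11 to 1.19) (limma, unadjusted p = 0.09, adjusted p = 0.72). This was the lowest p-value of any member. Adcy3, the cyclase of olfactory cilia, also reported from sperm, had 92.02, 53.5 and 45.9 in T+T, against 53.8 in T+O. Only replicate 1 was high, and without it the log2 difference was -0.10 in place of 0.16. Adcy4 had 27.03, 28.3 and 34.6 in T+T, against 22.6 in T+O, with T+O the lowest of the 4. Adcy7 had 64.8, 50.6 and 55.9 in T+T, against 65.8 in T+O, with T+O the highest, though replicate 1 came close to it.

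The probe sets of Adcy9, a cyclase with little response to forskolin, did not go the same way. On 92527_at it had 48.9, 36.4 and 56.95 in T+T, against 42.4 in T+O, a log2 difference of 0.11. On 98356_at it had 34.2, 29.9 and 58.7 in T+T, against 54.1 in T+O, a log2 difference of -0.38. In both, replicate 3 was the highest T+T array and T+O fell inside the T+T range, and no direction is given for this gene. Adcy2 and Adcy8, cyclases of the brain, were under the filter on all 4 arrays, with signals of 12.1 to 17.6 for Adcy2 and 5.29 to 11.5 for Adcy8.

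The anchoring proteins were the largest family, with 14 probe sets of 8 genes, of which 9 were above the filter. Their median log2 difference was -0.30, the lowest of any family, from 4 positive and 5 negative values between -0.41 and 0.42, and it was between -0.33 and -0.30 under the other scalings. None passed the test. Akap8l, a nuclear protein related to Akap8, had 152, 164 and 183 in T+T, against 219 in T+O. All 3 T+T signals were below T+O, and the log2 difference was -0.38 (95% interval -0.85 to 0.08) (limma, unadjusted p = 0.09, adjusted p = 0.72). Akap12, the scaffold also called gravin, had 251, 369 and 322 in T+T, against 386 in T+O, below T+O throughout but with replicate 2 close to it. Akap2, a scaffold at the actin cytoskeleton and membrane, lay the other way, with 54.1, 56.4 and 48.9 in T+T, against 37.3 in T+O and a log2 difference of 0.42 (95% interval -0.20 to 1.03).

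Akap1 ties PKA to the outer mitochondrial membrane and also binds RNA. Its probe set 97368_at had 2236, 2180.2 and 1723 in T+T, against 1810.0 in T+O, and 97369_g_at had 1735, 1616 and 1436 in T+T, against 1471 in T+O. In both, replicates 1 and 2 lay above T+O and replicate 3 just below it, at log2 differences of 0.17 (95% interval -0.30 to 0.63) and 0.11 (95% interval -0.30 to 0.53). These intervals are among the narrowest here. The probe set 97367_at had 25.5, 17.1 and 35.8 in T+T, against 35.2 in T+O, with replicate 3 again next to T+O and the log2 difference at -0.36.

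Akap8, a nuclear anchor that associates with condensing chromosomes, was read by 5 probe sets. On 95001_at it had 33.7, 39.4 and 32.7 in T+T, against 50.03 in T+O and on 94390_at 34.5, 24.02 and 40.5 in T+T, against 44.9 in T+O, with T+O the highest of the 4 both times. On 161596_f_at it had 54.2, 43.8 and 67.2 in T+T, against 39.1 in T+O, with T+O the lowest. The log2 differences were -0.41, -0.37 and 0.39, and the remaining pair, 161088_r_at and 161089_r_at, lay under the filter. The letters f and r in these names mark probe sets outside the maker's standard design rules, f for those that fit a family of sequences. The probe sets of Akap8 disagreed, and no direction is given for it. Of the anchors under the filter, Akap9, a large scaffold of the centrosome and Golgi, had 2.88, 1.33 and 1.32 in T+T, against 6.77 in T+O, Akap17b had 5.87, 1.99 and 15.97 in T+T, against 15.8 in T+O and Akap7 had 2.99, 1.59 and 2.03 in T+T, against 1.46 in T+O.

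**Figure D2:**
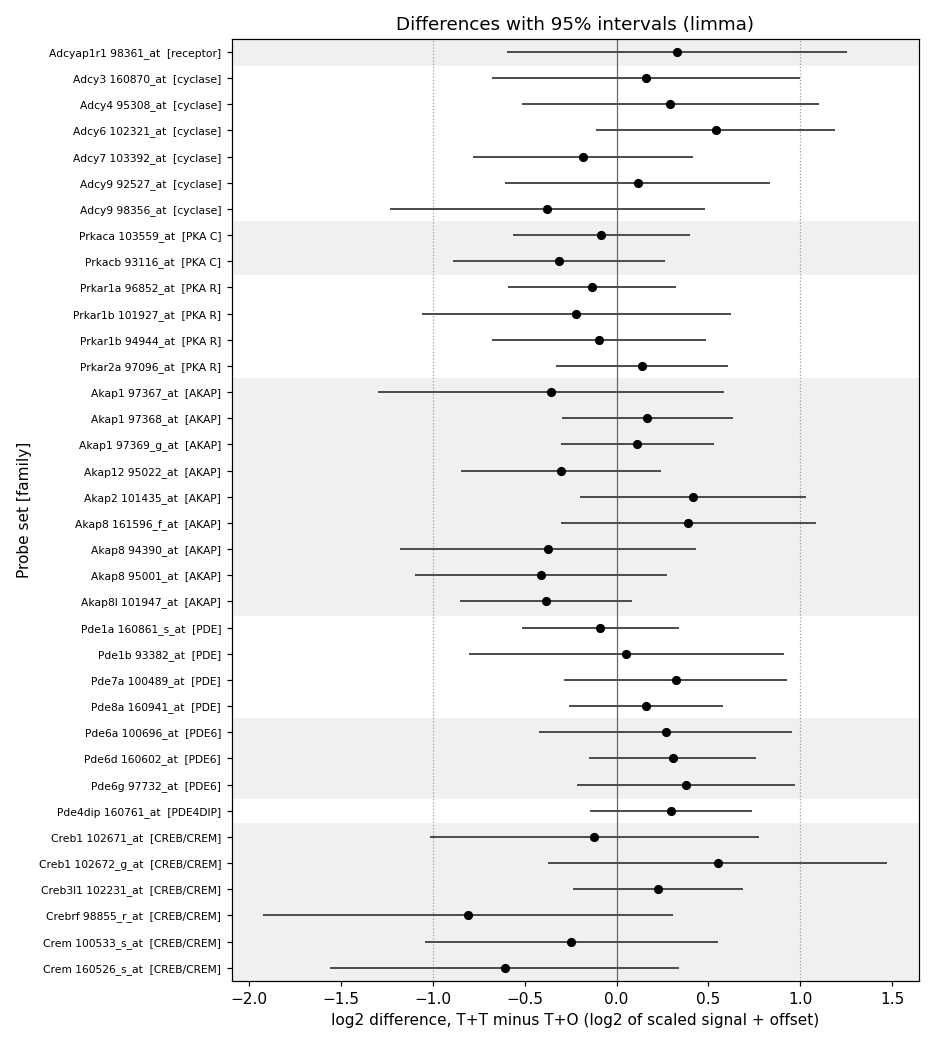
The log2 difference T+T minus T+O (points) with its 95% interval from limma (bars) for the 36 probe sets above the filter, by family; the dotted lines mark a difference of 1 (2-fold) either way. Every bar crosses 0, the widest belongs to Crebrf, and the bars of 21 probe sets stay between the dotted lines.

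Among the phosphodiesterases other than PDE6, which act on cyclic AMP with or without cyclic GMP, apart from Pde9a, 4 probe sets were above the filter. Pde8a, an enzyme selective for cyclic AMP and known from Leydig cells, had 252, 258 and 246 in T+T, against 225 in T+O. The T+T arrays averaged 252 ± 6.25 (SD, n = 3), and all 3 were above T+O. The log2 difference was 0.16 (95% interval -0.26 to 0.58), an interval that ends below a 1.5-fold rise and is set by the spread borrowed from all probe sets rather than by the 3 close T+T values. Pde1a, a calmodulin-dependent enzyme found in sperm, had 243, 274 and 256 in T+T, against 274 in T+O on 160861_s_at. T+O and replicate 2 were almost equal, and the log2 difference was -0.09 (95% interval -0.52 to 0.34). Its other probe set, 99453_at, was under the filter with 0.92, 0.93 and 1.71 in T+T, against 1.83 in T+O.

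Pde7a, selective for cyclic AMP, had 52.8, 61.7 and 52.7 in T+T, against 42.5 in T+O, with T+O the lowest and a log2 difference of 0.32 (95% interval -0.28 to 0.93). Pde1b had 73.2, 34.8 and 48.2 in T+T, against 47.9 in T+O, with replicates 1 and 2 on opposite sides of T+O. The sign of its log2 difference, 0.05, turned to -0.18 without replicate 1. Pde4b, an enzyme that cyclic AMP itself induces in many cells, was under the filter with 23.8, 5.97 and 21.04 in T+T, against 18.7 in T+O, and Pde1c with 22.1, 3.05 and 18.7 in T+T, against 20.2 in T+O. In both, replicate 2 was low and the other T+T arrays lay near T+O. Pde9a, which acts on cyclic GMP, was also under the filter. The median log2 difference of the 4 tested probe sets of this group was 0.11.

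The PDE6 subunits form the cyclic GMP phosphodiesterase of photoreceptors, apart from Pde6d, which binds prenylated proteins in many tissues. Pde6d had 505, 435 and 398 in T+T, against 358 in T+O. Pde6g, the inhibitory subunit, had 73.4, 65.01 and 57.3 in T+T, against 47.7 in T+O, and Pde6a, a catalytic subunit, had 37.7, 39.01 and 44.3 in T+T, against 31.8 in T+O. In all 3 rows T+O was the lowest of the 4 arrays. Their log2 differences were 0.30 (95% interval -0.15 to 0.76) for Pde6d, 0.38 (95% interval -0.22 to 0.97) for Pde6g and 0.27 (95% interval -0.42 to 0.95) for Pde6a, and none passed (limma, adjusted p = 0.78, 0.80 and 0.89). Over the array 29.5% of probe sets had all 3 T+T signals above T+O. Pde6b was under the filter on both of its probe sets. On 162167_f_at it had 32.7, 33.2 and 8.02 in T+T, against 10.7 in T+O, where replicates 1 and 2 stood apart from replicate 3 and T+O.

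Pde4dip, or myomegalin, holds Pde4d at the Golgi and centrosome. On 160761_at it had 617, 596 and 503 in T+T, against 462 in T+O, with T+O the lowest and a log2 difference of 0.30 (95% interval -0.14 to 0.73). Its second probe set, 161728_f_at, lay under the filter at 10.1 to 13.9.

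Among the transcription factors, 6 probe sets were above the filter, and those of Crebrf and Crem (160526_s_at) had the widest intervals of the 36 members. Crem was read by 2 probe sets, each with an s in its name, a mark for probes that fit several transcripts. On 100533_s_at it had 44.1, 26.4 and 42.3 in T+T, against 45.5 in T+O. On 160526_s_at it had 15.1, 16.7 and 25.2 in T+T, against 33.7 in T+O. This second probe set stood at the edge of the filter, with a mean of 22.67 against a level of 22.66. Replicates 1 and 2 lay under that level, and after median or quantile scaling the probe set was not kept. T+O was the highest array on both Crem probe sets, narrowly on the first, where replicates 1 and 3 came close to it. The log2 differences were -0.25 (95% interval -1.04 to 0.55) and -0.61 (95% interval -1.56 to 0.34) (limma, adjusted p = 0.93 and 0.79). On the same arrays the spermatid transition protein gene Tnp2, a known target of CREM, had 10600.1, 10737 and 8456 in T+T, against 7942 in T+O. Its log2 difference was 0.31, and it does not stand for the other targets. Of 17 listed CREM targets, all 3 T+T signals lay above T+O for 7 (41.2%, against 29.5% of all probe sets). They lay below it for 1 (5.88%, against 23.7% of all), which was Crisp2, at -0.67. A link between Crem and these genes was not tested.

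Creb1, the factor that gives the family its name, had 27.3, 17.9 and 25.4 in T+T, against 26.2 in T+O on 102671_at. T+O lay inside the T+T range there. On 102672_g_at it had 47.6, 24.7 and 49.2 in T+T, against 23.6 in T+O, where replicates 1 and 3 were high and replicate 2 lay next to T+O. The log2 differences were -0.12 and 0.55 (95% interval -0.37 to 1.47), and the third probe set, 102673_at, lay under the filter with 18.4, 19.1 and 8.02 in T+T, against 24.97 in T+O. The 3 probe sets did not share a direction. Creb3l1, a membrane-bound factor of the endoplasmic reticulum stress response, had 300.0, 252 and 246 in T+T, against 225 in T+O. All 3 T+T signals were above T+O by a small margin, at a log2 difference of 0.23 (95% interval -0.24 to 0.69).

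Crebrf, which regulates the related factor Creb3, gave the largest difference among the 36 members, on the r-marked probe set 98855_r_at. It had 13.1, 15.3 and 35.995 in T+T, against 42.3 in T+O. Replicates 1 and 2 were low, under the filter level of 22.7, and replicate 3 came nearer to T+O. The log2 difference of -0.81 (95% interval -1.93 to 0.31) did not pass (limma, adjusted p = 0.75). The sample spread of its log2 signals over the T+T arrays was 0.54 (SD, n = 3), beside a median of 0.21 over the members and 0.20 over all probe sets. Crebbp, the coactivator that binds phosphorylated CREB, lay under the filter and was not tested. It had 7.02, 8.23 and 10.1 in T+T, against 32.3 in T+O, all 3 T+T arrays far below T+O, with a difference of -1.21 on the log2 scale. This was the widest gap of the 54 members. Only its T+O signal exceeded the filter level.

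**Figure D3:**
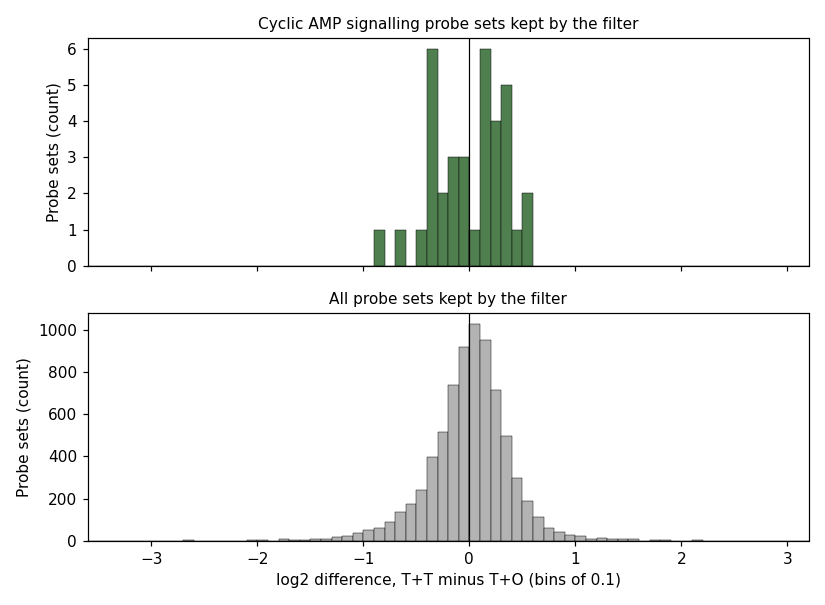
Counts of probe sets by log2 difference T+T minus T+O in bins of 0.1, for the 36 cyclic AMP signalling probe sets (upper panel) and for all 7453 probe sets above the filter (lower panel). The members run from -0.81 to 0.55, inside the tails of the lower panel, whose 5th and 95th percentiles are -0.65 and 0.57.

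How firmly a change is bounded differed by gene. The 95% interval lay inside 2-fold in both directions for 21 of the 36 probe sets (58.3%), where 66.2% of all probe sets reached this. It lay inside 1.5-fold for 4, those of Prkaca, Akap1 (97369_g_at), Pde1a and Pde8a. Intervals reached a 2-fold fall for 9 probe sets and a 2-fold rise for 6. Changes of these sizes are not excluded for them by these 4 arrays. All of these intervals were taken after the offset was added, which understates the folds of dim probe sets. They also hold only for the arrays as grouped by their titles.

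T+T replicate 1 is the array whose title and label both state renewed testosterone, and T+O the one whose title and label both state withdrawal. This pair is 1 array against 1 and has no replicate check. In it 5 of the 36 probe sets were at least 1.5-fold apart (13.9%, against 17.9% of all). Higher in T+T replicate 1 were 2, where 6.87% of all probe sets lay: Creb1 on 102672_g_at, by 0.78 on the log2 scale, and Adcy3, by 0.68. Lower were 3, where 11.1% lay: Crebrf, at -1.18, Crem on 160526_s_at, at -0.81, and Akap12, at -0.60. With the arrays of replicates 2 and 3 taken as withdrawn, as their labels end, replicate 1 was at least 1.5-fold from all 3 other arrays for Adcy3 alone, where 2.8% of all probe sets met this, and no member passed limma (lowest adjusted p = 0.92).

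The rest of the pathway was described with 6 lists of 113 genes, of which 77 were on the array and 51 above the filter. None of the 51 passed over all probe sets (limma, lowest adjusted p = 0.29), and 4 had an unadjusted p under 0.05 (7.84%, against 7.8% of all probe sets). Their median log2 difference was 0.20, beside 0.03 over all probe sets. A gene was represented by its brightest probe set. All 3 T+T arrays lay above T+O for 22 of the 51 genes, where 29.5% of all probe sets did, and below it for 5, where 23.7% did. These counts too moved with the scaling. After median scaling they were 15 above and 7 below (29.4% and 13.7%, against 24.8% and 26.6% of all). After quantile scaling they were 22 and 8 (43.1% and 15.7%, against 29.9% and 24.6% of all). With no scaling they were 9 and 2 (17.6% and 3.92%, against 14.8% and 10.7% of all). At least 1.5-fold on all 3 T+T arrays were 1 gene above (1.96%, against 1.84% of all) and 2 below (3.92%, against 2.23% of all).

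Of 12 receptors that raise cyclic AMP, which include Adcyap1r1 from the members, 0 passed in either direction. All T+T signals lay above T+O for 7 (58.3%, against 29.5% of all probe sets) and below it for 0 (against 23.7% of all). Under the other scalings they lay above it for 4 to 8 (33.3% to 66.7%, against 14.8% to 29.9% of all). Mc2r, the receptor for adrenocorticotropic hormone, had 39.3, 36.6 and 26.6 in T+T, against 11.8 in T+O. T+O was far the lowest, under the filter level, and the log2 difference was 1.01 (95% interval 0.16 to 1.87) (limma, adjusted p = 0.55). Avpr2, a vasopressin receptor, was the lowest of the list, with 19.7, 26.7 and 21.4 in T+T, against 25.7 in T+O. Fshr, the Sertoli cell receptor for follicle-stimulating hormone, had 154, 176 and 149 in T+T, against 136 in T+O, all above T+O by a small margin.

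Of 6 G protein genes, 0 passed in either direction. Gnas, which encodes the stimulatory subunit, had 1017, 948 and 1002 in T+T, against 810.3 in T+O. T+O was the lowest, at a log2 difference of 0.28 (95% interval -0.10 to 0.67). Gnai3, an inhibitory subunit, had 181, 236 and 473 in T+T, against 479 in T+O. Replicates 1 and 2 were low and replicate 3 next to T+O, at a log2 difference of -0.79 (95% interval -1.81 to 0.23).

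Of 4 PKA inhibitors and other effectors, 0 passed in either direction. Hcn2, a channel gated by cyclic nucleotides and voltage, had 435, 427 and 434 in T+T, against 317 in T+O. The T+T values were close to each other and above T+O, yet the adjusted p was 0.60 in limma. Pkib, a PKA inhibitor, had 23.8, 33.4 and 46.98 in T+T, against 37.1 in T+O, with T+O inside the T+T range.

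Of 3 partners and regulators of CREB and CREM, 0 passed in either direction. Atf2, a factor that binds related DNA elements, had 30.7, 49.9 and 45.03 in T+T, against 111 in T+O. All 3 T+T arrays were well below T+O, at a log2 difference of -1.24 (95% interval -1.95 to -0.53) (limma, unadjusted p = 0.0038, adjusted p = 0.29), the lowest adjusted p of the 6 lists. Fhl2, a LIM-domain coactivator, had 115, 111 and 130.1 in T+T, against 115 in T+O.

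Of 10 known CREB target genes, 0 passed in either direction, with a median log2 difference of 0.09. The lowest was the clock gene Per1, with 106, 85.4 and 97.000 in T+T, against 175 in T+O, a log2 difference of -0.81. All 3 T+T signals lay at least 1.5-fold below T+O for it, as they did for 2.23% of all probe sets. The highest was Star, the mitochondrial cholesterol carrier, with 22.5, 18.4 and 45.9 in T+T, against 14.5 in T+O, a log2 difference of 0.61. This was on an f-marked probe set, 161784_f_at, where T+O and replicates 1 and 2 lay under the filter level. Immediate-early genes that cyclic AMP induces did not share a direction: Egr1 had 53.8, 47.9 and 64.4 in T+T, against 43.8 in T+O and Nr4a1 had 36.2, 55.9 and 70.4 in T+T, against 70.4 in T+O.

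Of 17 spermatid genes known as CREM targets, 0 passed in either direction. The median log2 difference was 0.16, and 0.02 after quantile scaling. Ldhc and Pgk2 of this list were also taken as spermatocyte markers, so the median is not that of spermatid genes alone. The highest was Prm2, a protamine, with 35.4, 29.3 and 58.1 in T+T, against 25.5 in T+O on a probe set whose T+O signal was near the filter. The lowest was Crisp2, a sperm protein of the acrosome and tail, with 929.8, 1398 and 1759.9 in T+T, against 2106 in T+O. T+O was the highest of the 4 for it, and the log2 difference was -0.67 (95% interval -1.40 to 0.06).

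**Figure D4:**
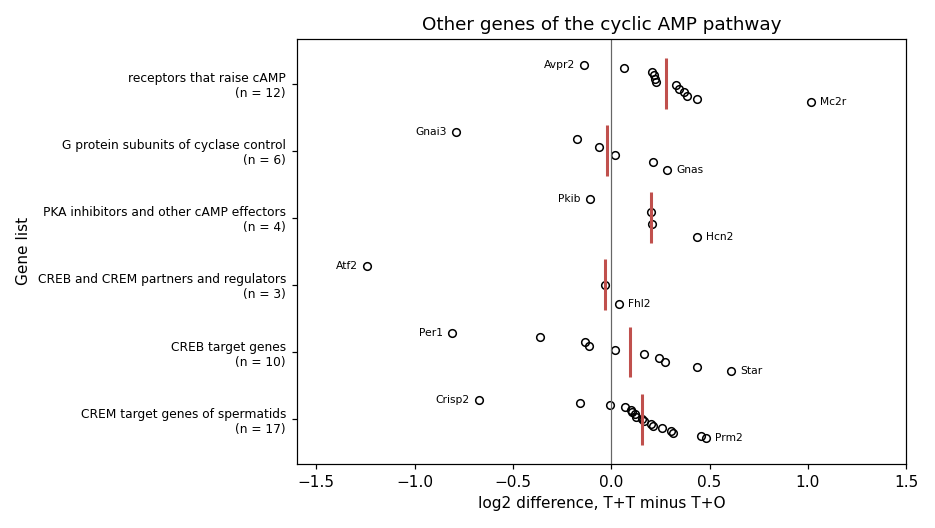
The log2 difference T+T minus T+O of the genes above the filter in 6 lists of the pathway, 1 open circle a gene, with the list's median as a red bar and its lowest and highest gene named. Medians run from -0.03 for the partners and regulators to 0.28 for the receptors, and the values spread widest for Atf2 at -1.24 and Mc2r at 1.01.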

How the data were processed

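One-colour Affymetrix arrays, 4 in all and known as such from their probe set names, measured testis RNA of hpg mice. The deposited table holds linear signal intensities made with software not given in the sources used here. Their medians differed (29.3, 25.4 and 48.3 in T+T, 37.5 in T+O), so the 66 control probe sets were removed and each array was scaled to the mean of the 4 means taken after trimming 2% at each end. An offset of 9.78 (25th percentile) was added before log2, so folds of dim probe sets are understated. Probe sets with a mean above the 40th percentile (22.7) were kept, 7453 of 12422.

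T+T minus T+O was tested with limma 3.58.1 in R 4.3.3 (eBayes with an intensity trend, two-sided, 2 residual and 5.73 prior degrees of freedom) and Benjamini-Hochberg adjustment over all 7453. Intervals use the moderated standard error. The number of arrays limits the precision. The procedure was tested on simulated data in which T+O varied like the T+T arrays. That assumption was therefore not checked by the simulation.

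Gene names are those of the platform annotation, where 10833 probe sets have 1 symbol, 396 several and 1193 none given, and 10817 matched a RefSeq gene table by ID. For the other lists the symbols of that table were used. Replicate 3 of T+T was numbered in accession order. The members and lists were chosen with earlier results of these data known. The naming rule took every family's members, its extremes and all probe sets of a gene read more than once, and the highest and lowest gene of each other list. Fshr, Egr1, Nr4a1, Tnp2, Adcyap1, Pde4b and Crebbp were named beside it. Alternatives were other scalings, offsets, filters and variance priors, leaving out T+T arrays, and another grouping.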

Additional observations from a re-analysis of the deposited data

How the results depend on the processing

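The count of members past the adjusted threshold stayed at 0 under all 12 alternatives, with a lowest adjusted p between 0.30 (without T+T replicate 3) and 1.00 (no scaling). Members at least 1.5-fold to one side of T+O on all T+T arrays were 0 in the report. With no filter there was 1 of 54 (Crebbp), where 4.28% of all probe sets met this. With replicates 2 and 3 of T+T taken as withdrawn, replicate 1 lay that far from all others for 1 of 36 (Adcy3), where 2.8% of all did. Without replicate 1 there were 0, where 5.7% of all met this. Without replicate 2 there was 1, Creb1 (102672_g_at), where 5.62% did. Without replicate 3 there were 2, Crem (160526_s_at) and Crebrf, where 8.79% did. The members' median log2 difference of 0.08 became -0.020 with no filter and -0.055 to 0.090 when 1 T+T array was left out, the lowest without replicate 1. Without scaling the median of all probe sets shifted by -0.16, and member values are taken relative to it.

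Of 413 log2 differences of single probe sets under the alternatives, 17 changed sign and none passed the test. Leaving out 1 T+T array gave -0.099 to 0.34 for Adcy3 and -0.18 to 0.27 for Pde1b, both below 0 without replicate 1. It gave -0.20 to 0.0064 for Creb1 (102671_at) and -0.37 to 0.078 for Prkar1b (101927_at), both above 0 without replicate 2. It gave -0.0054 to 0.26 for Adcy9 (92527_at), -0.14 to 0.016 for Prkaca and -0.18 to 0.017 for Prkar1b (94944_at), whose signs turned without replicate 3. With replicates 2 and 3 taken as withdrawn the values that changed sign were -0.044 for Adcy4, 0.16 for Adcy7, 0.18 for Creb1 (102671_at), 0.19 for Crem (100533_s_at), -0.052 for Adcyap1r1, -0.011 for Pde6a, 0.13 for Prkaca, 0.33 and 0.20 for Prkar1b, and -0.075 for Prkar2a. Each of these settings changes which arrays stand on each side, and the cause was not tested further. No paired analysis was possible because T+O has a single array. Signals near or under the filter level limit what can be said of Crem, Creb1, Crebrf and Crebbp.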
